A study of Mus musculus with 2 samples.

Results

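Mir191 and Mir425 are neighbouring microRNA genes on mouse chromosome 9, and Gm24083 is an annotated microRNA gene that covers Mir191 on the other strand. The 3 genes were selected by their GENCODE M21 symbols from the 2202 microRNA genes in the count tables. Left cortical tissue came from 4-day-old females of B6CASTF1/J, the F1 hybrid of C57BL/6J and CAST/EiJ mice, with no treatment, transgene or deletion named in the labels. The 2 biological replicates form 1 group with 1 library each, and both carry the same donor record although the labels number the animals separately. No second group was analysed, so the results are levels, strand balances and the spread between these libraries, without a test between conditions.

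A microRNA gene is transcribed as part of a longer primary RNA, from which Drosha cuts a hairpin and Dicer a duplex of about the length of the mature strand. Bases 2 to 8 of the mature strand, the seed, set most of its pairing with target messengers. Mir191 and Mir425 are conserved together in mammals and are known to be made from 1 primary transcript in many tissues. In mouse, miR-191 is known to act in the enucleation of erythroblasts, where it lowers Riok3 and Mxi1, and in the spine remodelling of hippocampal neurons. In human, miR-425 is known to target NPPA, the gene of a cardiac peptide hormone, and miR-191 is widely used as a reference in microRNA assays.

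The mature strands of both genes and both hairpins follow 5′ to 3′ because the results turn on whether the neighbours share a seed and on the overlap of the strands. Mir191 and Mir425 matched the RefSeq table (GRCm38.p6, the assembly of mm10), and Gm24083 was taken from the GENCODE M21 transcripts. In the mature strands capitals mark the seed, in the hairpins the 2 mature arms, and in Gm24083 the stretch that is the reverse complement of the Mir191 hairpin.
miR-191-5p (chr9:108568325-108568347, plus strand): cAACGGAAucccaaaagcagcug
miR-191-3p (chr9:108568367-108568388, plus strand): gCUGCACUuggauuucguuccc
miR-425-5p (chr9:108568789-108568811, plus strand): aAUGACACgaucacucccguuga
miR-425-3p (chr9:108568830-108568850, plus strand): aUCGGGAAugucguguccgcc
miR-489-3p (chr6:3721922-3721944, minus strand): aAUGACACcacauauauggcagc
Mir191 hairpin (chr9:108568319-108568392, plus strand): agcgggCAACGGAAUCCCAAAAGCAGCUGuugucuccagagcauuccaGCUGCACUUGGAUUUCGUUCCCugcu
Mir425 hairpin (chr9:108568777-108568861, plus strand): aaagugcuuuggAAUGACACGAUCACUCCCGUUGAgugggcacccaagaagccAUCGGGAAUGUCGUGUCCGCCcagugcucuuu
Gm24083 (chr9:108568295-108568414, minus strand): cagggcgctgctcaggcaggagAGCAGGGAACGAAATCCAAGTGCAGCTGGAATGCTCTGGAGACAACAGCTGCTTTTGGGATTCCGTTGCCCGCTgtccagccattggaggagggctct

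The neighbours do not share a seed. miR-191-5p and miR-425-5p had the same base at 5 of 23 positions. No other mature strand in the RefSeq table had the seed of miR-191-5p, miR-191-3p or miR-425-3p. The seed of miR-425-5p was also that of miR-489-3p, printed for that reason, and these strands were equal over their first 8 bases and at 12 of 23 positions. Mir489 (ENSMUSG00000070107.1) had 0 reads in both libraries, so Mir425 was the one gene of this seed with reads in these libraries. The tables count whole hairpins, so the 5p and 3p arms of Mir191 and of Mir425 were not separated.

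Mir191 (ENSMUSG00000105497.1) covers 74 bases and Mir425 (ENSMUSG00000065579.1) 85 bases of the plus strand, with 384 bases between them. Gm24083 (ENSMUSG00000092915.1) covers 120 bases of the minus strand and extends past Mir191 by 24 bases on the left and 22 on the right. In M21 all 3 lie within 4833445I07Rik, a long noncoding RNA gene on the plus strand with 2 annotated transcripts. The first is a single exon of 1642 bases, in which both plus-strand hairpins are exonic. The second is spliced. Its intron of 303 bases holds the whole Mir191 hairpin, and its second exon ends 2 bases before Mir425 begins. In human these microRNAs lie in an intron of DALRD3, which encodes a partner of a tRNA methyltransferase. In the mouse annotation Dalrd3 began 1024 bases downstream of Mir425 on the same strand, and Ndufaf3, a mitochondrial complex I assembly factor, began 884 bases upstream of Mir191 and runs away from it on the opposite strand.

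**Figure D1:**
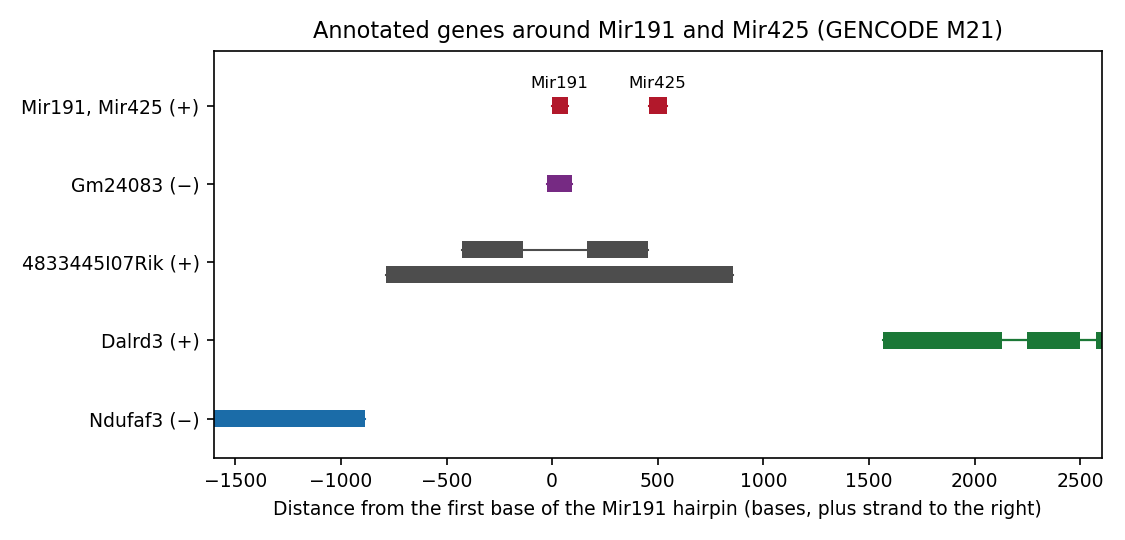
Genes around the cluster, with distance from the first base of the Mir191 hairpin in bases on the x axis and 1 row per gene or gene pair (strand in brackets); boxes are exons, thin lines introns, and Dalrd3 and Ndufaf3 run past the edges. Mir191 sits in the intron of the spliced 4833445I07Rik transcript, Mir425 starts 2 bases after that transcript ends, and Gm24083 covers Mir191 on the minus strand.

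Replicate 1 comprised 11686912 reads, 3555469 of them (30.4%) on a microRNA gene in its annotated direction, and replicate 2 comprised 9938361 reads, 2761003 of them (27.8%). Levels are counts scaled to one total over those reads (CPM), so that 1 CPM is 3.56 and 2.76 reads. As a tissue check, 7 of 11 microRNAs listed as neuronal reached 2 CPM in both libraries, against 20.4% of all 2202 genes. The neuronal list summed to 84606 and 62604 CPM. Mir139, Mir149, Mir137, Mir128-1 and Mir128-2 made up nearly all of that sum. Mir124a-1, Mir124a-2, Mir124a-3 and Mir9-2 did not reach 2 CPM in both, with 2 to 10 reads each per library. Whether reads mapped to several places, left out of these counts, lower those values was not tested. The 3 red cell microRNAs had a summed level of 60.2 CPM in replicate 1, against 550 CPM in replicate 2. The 7 epithelial ones summed to 2475 CPM and 361 CPM, the 5 matched leukocyte and microglial ones to 1104 and 1185 CPM, and the 3 vessel ones to 16319 and 23815 CPM. The red cell and epithelial sums thus differed most between the libraries, in opposite directions.

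Mir191 was an abundant microRNA of this tissue. It had 31165 reads (8765 CPM) in replicate 1 and 22064 reads (7991 CPM) in replicate 2. These were 0.877% (95% Wilson interval 0.867 to 0.886) and 0.799% (0.789 to 0.810) of counted reads. Over both animals it averaged 8378 ± 547 CPM (SD, n = 2), rank 30 of 2202 genes, and it ranked 27th in replicate 1 and 31st in replicate 2. The level was above that of 98.6% of genes in the tables, of which 1407 had no annotated-strand read in either library. Reads mapped to several places are not in these counts, and 1023 genes share 22 bases with another hairpin. Levels of such genes can be understated, so ranks and shares, here and for Mir425, hold among the counted reads. Intervals here cover counting error only, and may be too narrow even for that, since amplified reads are not independent molecules.

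Mir425 was present at a moderate level. It had 2151 reads (605 CPM) in replicate 1 and 1736 reads (629 CPM) in replicate 2, or 0.0605% (0.0580 to 0.0631) and 0.0629% (0.0600 to 0.0659) of counted reads. Its mean was 617 ± 16.8 CPM (SD, n = 2), rank 127, above 94.2% of genes. Both plus-strand genes passed the minimum of 2 CPM in both libraries and Gm24083 did not, which makes 2 of 3 members. Of all 2202 genes, 20.4% passed it. Together Mir191 and Mir425 held 0.937% of counted reads in replicate 1 and 0.862% in replicate 2 (mean 0.900% ± 0.0531), and Mir191 supplied 93.5% and 92.7% of these.

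**Figure D2:**
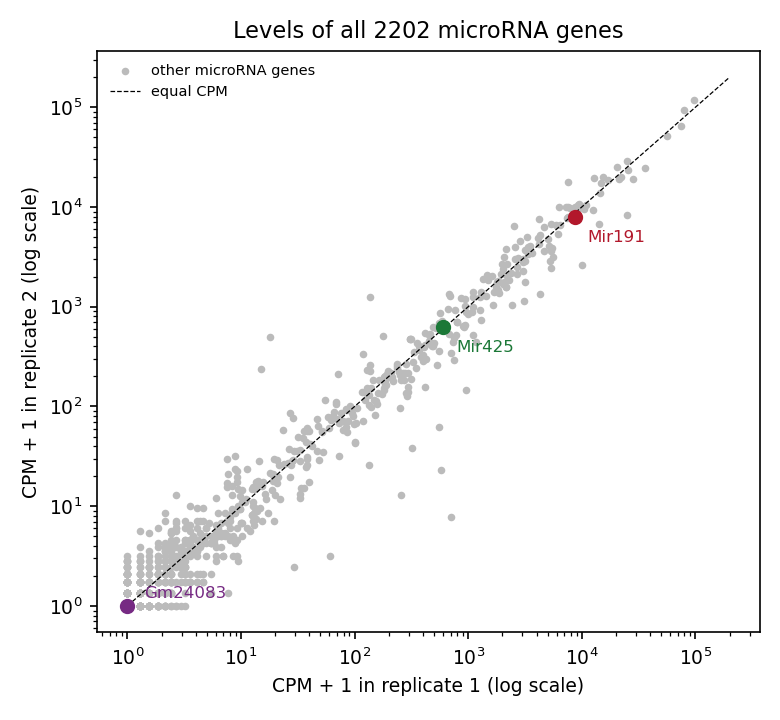
CPM + 1 of each of the 2202 microRNA genes in replicate 1 (x axis) and replicate 2 (y axis), both on log scales, with a dashed line at equal CPM. Mir191 (8765 and 7991 CPM) and Mir425 (605 and 629 CPM) lie close to the line, and Gm24083 lies at 0 CPM in both libraries.

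Gm24083, which no source used here describes beyond its place, had 0 reads on its own strand in both libraries. At this depth a count of 0 leaves room for 0.844 CPM in the first library and 1.09 CPM in the second (3 counts each). Set against the 53229 reads of Mir191 over both libraries, 0 reads on the other strand allow a share of up to 0.00564%. In the column of opposite-strand reads, Gm24083 had 31165 and 22064 reads, which are the Mir191 counts of the same libraries. In that column Mir191 had 0 reads in both libraries. Thus all reads counted at this overlap lay on the plus strand.

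The column that ignores strand gave Mir191 0 reads in both libraries, and Gm24083 likewise. Reads that fall on overlapping genes of both strands are set aside there as ambiguous. The Mir191 reads equalled 14.6% of the 213069 ambiguous reads of replicate 1 and 12.5% of the 175822 of replicate 2. Mir425, which no other microRNA gene overlaps, had 2151 and 1737 reads in that column, and its opposite-strand column held 0 reads in replicate 1 and 1 in replicate 2. A table read without strand would therefore list Mir191 at 0 beside an unreduced Mir425. Of the 308 genes with 100 or more annotated-strand reads over both libraries, 8.77% had under 50% of these reads in the column that ignores strand.

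**Figure D3:**
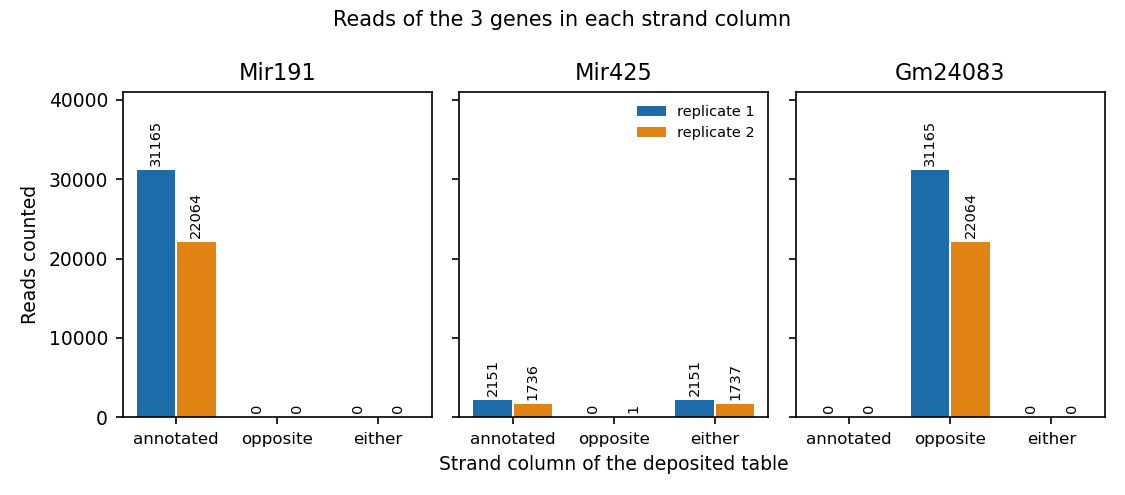
Reads of Mir191, Mir425 and Gm24083 (panels) in the annotated-strand, opposite-strand and either-strand columns of the deposited tables (x axis), with 1 bar per library and the count above it. The annotated-strand bars of Mir191 and the opposite-strand bars of Gm24083 have the same heights, 31165 and 22064, and both genes are at 0 in the either-strand column.

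Mir191 stands among the most abundant of such overlaps. The tables hold 32 pairs of microRNA genes that overlap on opposite strands. In 26 of these, the less abundant gene had 100 or more opposite-strand reads and fewer on its own strand, as Gm24083 does. That is 1.18% of all 2202 genes. The opposite-strand reads of the less abundant gene are mainly its partner's reads. This count therefore follows largely from the level of the more abundant gene. By reads of the more abundant gene, Mir191 with 53229 ranked behind Mirlet7e (128719 reads, against 0 for Gm25927) and Mir126a (100114 reads, against 0 for Mir126b). Mir409 (22437 reads, against 0 for Gm24321) and Mir378a (19177 reads, against 0 for Gm25301) came next. In 23 of the 26 pairs the more abundant gene had no read in the either-strand column, which sets reads on such overlaps aside. In 13 of the 26 the less abundant gene contained the other whole, as Gm24083 contains Mir191.

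The mature sequences are not interchangeable between the strands. The longest stretch of miR-191-5p found in the own-strand sequence of Gm24083 was 7 bases, and its best ungapped placement matched 15 of 23 bases. For miR-191-3p these values were 5 bases and 14 of 22. Each of the 4 mature strands of Mir191 and Mir425 occurred in 1 of the 2202 hairpins, and neither hairpin shared 22 bases with another, whereas 1023 genes did. Reads mapped to several places, which stand outside the gene counts, made up 45.8% and 41.0% of the libraries. Both strands of the Mir191 locus were predicted to fold. The predicted free energy was -35.0 kcal/mol for Mir191 (-0.47 per base) and -58.6 kcal/mol for the longer Gm24083 (-0.49 per base), against -31.7 kcal/mol for Mir425 (-0.37 per base). Per base, 82.6%, 85.9% and 51.2% of the 2202 hairpins were predicted to be less stable than those of Mir191, Gm24083 and Mir425.

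Mir191 exceeded Mir425 in both libraries, although the hairpins lie on the same strand within 543 bases. The ratio of their counts was 14.5 (exact 95% counting interval 13.9 to 15.1) in replicate 1 and 12.7 (12.1 to 13.4) in replicate 2. The mean log2 ratio was 3.76 ± 0.13 (SD, n = 2), a gap many times the spread between libraries. That spread does not cover a bias between the 2 microRNAs that both libraries share. Whether their reads follow their abundance equally was not tested. A read covers a mature strand, not a stretch that grows with the hairpin, so counts were compared as they are. Per hairpin base, Mir191 stood at 118 and 108 CPM and Mir425 at 7.12 and 7.40 CPM, which gives ratios of 16.6 and 14.6. The log2 ratio was higher in replicate 1 by 0.19 (exact counting interval 0.09 to 0.28, from the reads of these libraries). With 1 library per animal, animal and library preparation cannot be told apart in that difference.

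Unequal levels were common among neighbouring microRNA genes. Counting genes that follow each other on 1 strand within 1000 bases and both reach 2 CPM in both libraries, there were 62 such pairs, and 35.5% of them were at least 10-fold apart. The other 61 pairs had a median gap of 6.50-fold, and 19 of them were further apart than Mir191 and Mir425. The pairs with the most similar log2 ratio of first to second gene were Mir341 over Mir1188 (14.1-fold), Mir382 over Mir134 (10.2-fold) and Mir23b over Mir27b (10.1-fold). The members of the first 2 pairs lie in the imprinted Dlk1-Dio3 region on chromosome 12 and Mir23b and Mir27b on chromosome 13.

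The ratio between Mir191 and Mir425 was steadier between the animals than that of most neighbours. Its change of 0.19 (log2) was exceeded in 51 of the other 61 pairs, whose median change was 0.50 and whose range was 0.01 to 2.72. With the 45 other pairs in which no member shares 22 bases with another hairpin, a restriction chosen after the data were seen, it was exceeded in 39. The pairs were not matched for level, and some had a member as low as 7.40 CPM. Counting error is larger where reads are few, and its part in these changes was not tested. Mir341 and Mir1188 changed by 0.27 and Mir382 and Mir134 by 0.38, whereas Mir23b and Mir27b changed by 1.16. Mir106b and Mir93, which share the host Mcm7 of the replication helicase, changed by 0.15, and Mir93 and Mir25 in the same host by 0.36. The largest change, 2.72, was that of the red cell pair Mir144 and Mir451a.

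**Figure D4:**
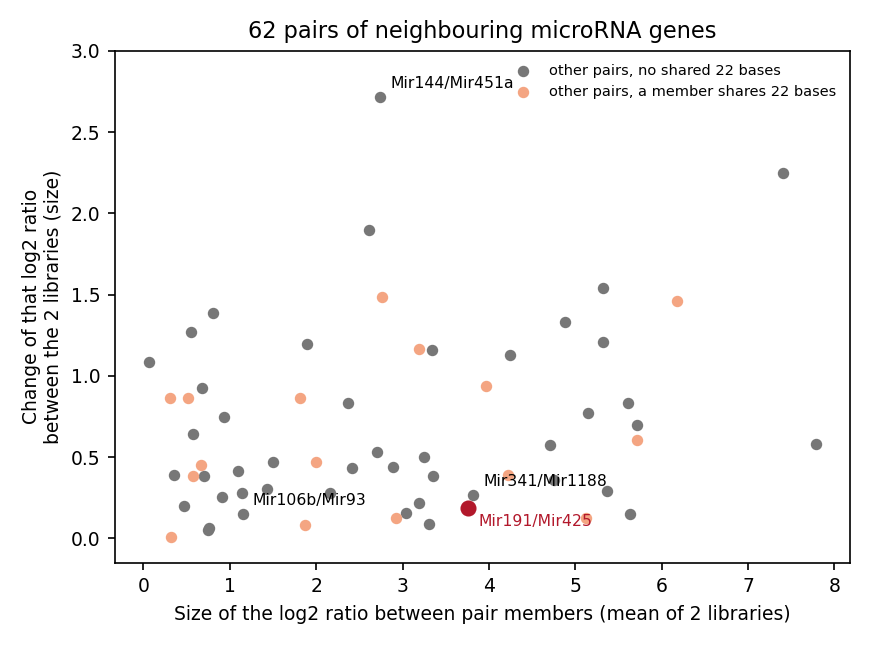
For 62 pairs of neighbouring microRNA genes, the size of the log2 ratio between the members (x axis, mean of 2 libraries) against the size of its change between the 2 libraries (y axis, log2); colours mark pairs with a member that shares 22 bases with another hairpin. Mir191 and Mir425 lie at 3.76 and 0.19, above the median gap of the other pairs (2.70) and below their median change (0.50).

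Neither gene differed much between the animals. On the scale of the trimmed mean of M-values (TMM), Mir191 was 1.07-fold higher in replicate 1 than in replicate 2 (log2 ratio 0.10, counting interval 0.07 to 0.12). Mir425 was 1.07-fold lower in replicate 1 (log2 ratio -0.09, -0.19 to -0.0013). Neither reached the 2-fold difference that 16.2% of the 308 genes with 100 or more reads showed in either direction. The median size of the log2 ratio over those genes was 0.34, and 42 of them had a smaller one than Mir191 and 39 a smaller one than Mir425. Among the 50 genes within 25 ranks of Mir191, 7 had a smaller log2 ratio in size, and among the 50 around Mir425, 5 did. The sign for Mir425 depended on the scaling: with all reads of the tables as library size it was 0.08.

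These small ratios stood beside marked differences in some of the microRNAs listed as cell type markers. Among the abundant neuronal ones, Mir128-1 (log2 ratio 1.03), Mir128-2 (0.80) and Mir139 (0.54) were higher in replicate 1. Mir149 (0.11) and Mir137 (0.04) differed little. Mir451a, the leading red cell microRNA, had 60 reads in replicate 1 and 1356 in replicate 2 (log2 ratio -4.89). Mir144, its neighbour, had 23 and 79 reads (-2.16). The other listed one, Mir486, which Mir3107 overlaps on the opposite strand, had 131 and 84 reads (log2 ratio 0.24, counting interval -0.17 to 0.65). Mir200b of epithelia had 2529 and 19 reads (log2 ratio 6.62), the largest ratio of the 7 epithelial ones. The others ranged from 0.61 for Mir205 (counting interval -0.11 to 1.40) to 4.65 for Mir429. The leukocyte and microglial sums were close, at 1104 and 1185 CPM, but their members went both ways. Mir223 (log2 ratio 0.91) and Mir150 (0.24) were higher in replicate 1. Mir142 (-0.69), Mir155 (-0.45) and Mir146 (-0.31) were lower there. No listed red cell, epithelial, leukocyte or vessel microRNA that matched a gene was at 0 in both libraries. The part of these cells in the levels of Mir191 and Mir425 was not tested, and in tissue RNA fewer cells of a type and less RNA per cell cannot be told apart.

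The genes most like Mir191, by Euclidean distance over log2(CPM + 1) of the 2 libraries, were Mir342 (7522 and 7994 CPM, distance 0.221), Mir23b (7393 and 7771 CPM, 0.249) and Mir324 (9227 and 9610 CPM, 0.276). By mean level it stood after Mir17 (8800 ± 1680 CPM) and Mir181d (8655 ± 1905 CPM) and before Mir296 (8159 ± 2563 CPM) and Mir342 (7758 ± 334 CPM). Its own SD of 547 CPM exceeded the gaps to Mir17, Mir181d and Mir296. Mir342 was below Mir191 in replicate 1 but at 7994 against 7991 CPM in replicate 2. The order of Mir191 among these genes was thus not resolved. The genes most like Mir425 were Mir146 (591 and 714 CPM, distance 0.185), Mir667 (548 and 685 CPM, 0.189) and Mir326 (523 and 607 CPM, 0.217). By mean level it stood after Mir665 (646 ± 181 CPM) and Mir31 (754 and 484 CPM in the 2 libraries) and before Mir667 (616 ± 97.1 CPM) and Mir700 (606 ± 105 CPM), all within the spread of those genes. With 2 libraries, likeness here is a matter of level alone.

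Mir191 and Mir425 were set beside 28 other microRNAs listed as lying in broadly expressed host genes. Of the 28, 26 overlap a protein-coding gene on the same strand in M21. There, Mir1839 lies in a long noncoding RNA gene, as Mir191 and Mir425 do, and Mir674 in no annotated host. The levels of the host genes were not measured. Of the 28, 27 reached 2 CPM in both libraries, against 20.4% of all 2202 genes. The median level of these 27 was 1611 CPM, against 89.2 CPM over all genes at or above that minimum. The list was chosen with earlier results of these data known, so these contrasts are not findings about such hosts. Mir744 in Map2k4 (24486 ± 1190 CPM), Mir126a in Egfl7 (16282 ± 4865 CPM, an endothelial microRNA) and Mir151 in Ptk2 (9372 ± 831 CPM) stood above Mir191, and 25 stood below. Mir425 had 16 above and 12 below. The members of 1 host differed in level elsewhere in the list too. In Mcm7, Mir93 had 6495 ± 144 CPM, Mir106b 2934 ± 154 CPM and Mir25 242 ± 37.1 CPM.

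Between the animals, most of that list differed more than the cluster did, as did most of the 308 genes with 100 or more reads. Of the 28, 25 had 100 or more reads over both libraries, with a median log2 ratio of 0.41 in size. Of these, 3 had a smaller ratio than Mir191 and 3 a smaller one than Mir425, against 13.6% and 12.7% of the 308 genes. At least 2-fold apart were 5, against 16.2% of the 308 genes. Mir185 in Tango2, with 137 CPM in replicate 1 and 1251 CPM in replicate 2, and Mir26a-2, with 257 and 12.0 CPM, differed most. Mir26a-2 is 1 of 7 among the 28 that share 22 bases with another hairpin, so that its count is uncertain.

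**Figure D5:**
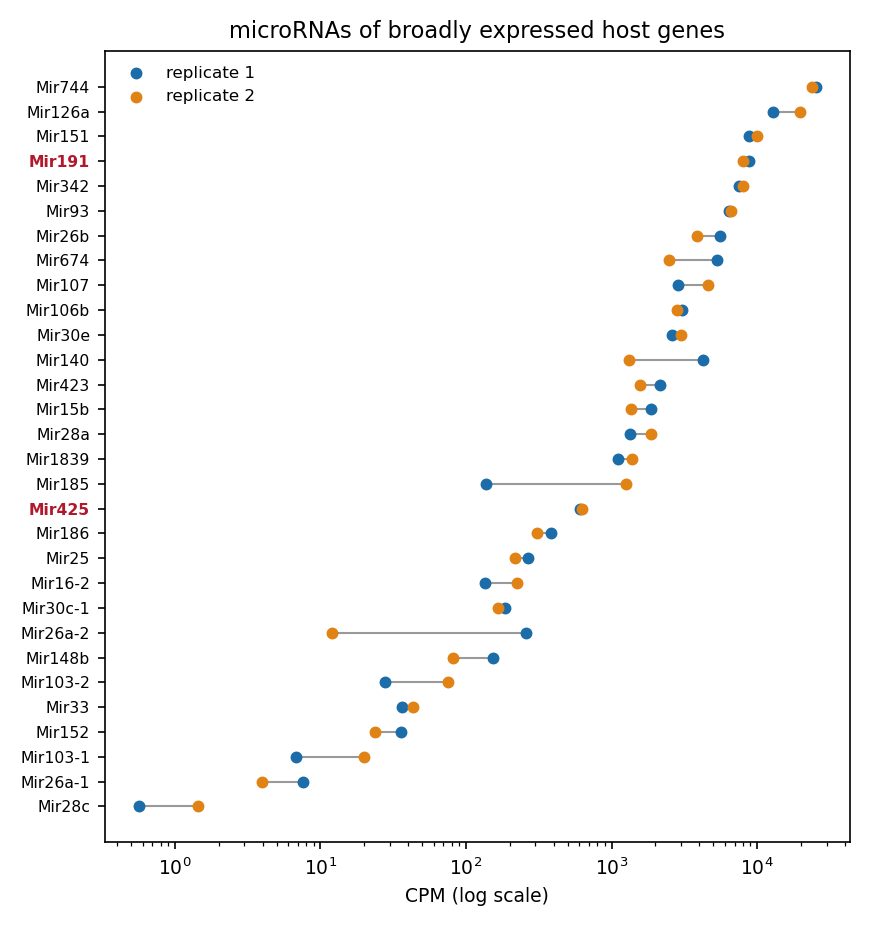
CPM (x axis, log scale) in replicate 1 and replicate 2 for Mir191 and Mir425 (red labels) and 28 other microRNAs listed as lying in broadly expressed host genes, ordered by mean level, with a line joining the libraries. Mir191 averages 8378 CPM, below 3 of the other genes, and the points of Mir425 (605 and 629 CPM) nearly coincide.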

How the data were processed

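Small RNAs of under 30 bases were sequenced, per the labels. Each deposited table gives raw read counts by microRNA gene for 1 library, unnormalized, on mm10 with GENCODE M21, per the notes that the authors deposited. The aligner, counter and trimming are not given in the sources used here. The tables have no header, and their 3 value columns were read from the layout as either-strand, annotated-strand and opposite-strand reads. Lines that name no gene (69.6% and 72.2% of reads) were left out of library sizes. All 2202 IDs matched M21, which gave symbols and places.

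CPM, Wilson and Clopper-Pearson intervals (95%), shared 22-base stretches and seeds were computed with Python 3.11.15 and scipy 1.17.1. Log2 ratios of replicate 1 over replicate 2 used a prior count of 0.5 and TMM factors from edgeR 4.0.16. These factors were computed over genes with 10 or more reads. DESeq2 1.42.0 size factors were an alternative. The ratio code was run on simulated counts with as many genes raised as lowered, which does not test the scaling under unbalanced changes. Hairpins were folded with ViennaRNA 2.7.2. A count of 0 allows 3 counts. No p-value is given.

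The members and lists were chosen with earlier results of these data known. Named were the members, for each of Mir191 and Mir425 the 3 nearest genes in log2(CPM + 1) and the 2 next above and below by level, the 3 neighbouring pairs with the most similar ratio, the 5 opposite-strand pairs with most reads, and the 4 highest of the host list. Others (Mir489, Mir144, Mir451a, Mir486, Mir106b, Mir93, Mir25, Mir185, Mir26a-2, Mir674, Mir1839) were named after their values were seen. The same holds for Mir200b and the other neuronal, epithelial and leukocyte microRNAs named. Whether CAST variants alter mapping was not tested. The leukocyte list named 6 genes, of which 5 matched.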

Additional observations from a re-analysis of the deposited data

How the results depend on the processing

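Over 10 results and 38 alternative values, 24 stayed within the SD or counting interval of the reported value, or within 1.5 times for a count. Each of 2 libraries lies within the SD of their mean by arithmetic. Leaving out a library could therefore not count as a move for a level or for the log2 ratio of Mir191 over Mir425. These alternatives are among the 24 and are no sign of steadiness. Leaving out a library gave Mir191 ranks from 27 to 31, Mir425 ranks from 123 to 130, mean levels of 7991 to 8765 CPM and 605 to 629 CPM, and log2 ratios of Mir191 over Mir425 from 3.67 to 3.86. The either-strand column moved Mir191 to 0 CPM and to rank 772, which it shares with all genes at 0 there, and Mir425 to 658 CPM and rank 118; the ratio of Mir191 over Mir425 has no value in that column. The opposite-strand column gave Gm24083 8378 CPM, which are the Mir191 reads. Scaled to all reads of the tables in place of counted reads, Mir191 stood at 2443 and Mir425 at 179. Per hairpin base the log2 ratio of Mir191 over Mir425 was 3.96. The log2 ratio between replicates for Mir191 was 0.13 with library size alone, 0.15 with no filter before TMM scaling and 0.26 with all reads, and that for Mir425 was 0.08 with all reads; the cause was not tested. Within 10000 bases there were 94 neighbouring pairs in place of 62. Depth limits Gm24083 to an upper bound, and 2 libraries limit every SD.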

Other observations

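Among the 26 opposite-strand pairs, the less abundant gene had no own-strand read in 20, Gm24083 among them. In the other 6, own-strand reads were 0.00727% of the pair's reads for Mir3544 (beside Mir337), 0.0261% for Mir3065 (beside Mir338), 0.206% for Mir129b (beside Mir129-2), 2.7% for Mir3074-2 (beside Mir24-2), 6.93% for Mir3107 (beside Mir486) and 42.4% for Mir3074-1 (beside Mir24-1). The values for Mir3544 and Mir3065 rest on 1 read each, and the count of 0 for Gm24083 allows up to 0.00564%. These pairs were named after their values were seen, and sequence shared with other hairpins makes some of the counts uncertain.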
